A study of Mus musculus with 8 samples.

Results

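The 10 core circadian clock genes Arntl, Clock, Per1, Per2, Per3, Cry1, Cry2, Nr1d1, Nr1d2 and Dbp were taken from the table of ventral pallidum (VP) libraries by their symbols. All 10 have 1 row each among the 14353 genes of the table, and 0 are absent. RNA came from VP tissue of adult mice, homozygous for VGluT2-Cre and heterozygous for the Rpl22 RiboTag allele, with no treatment. In these mice the ribosomal protein of the Rpl22 gene carries a hemagglutinin (HA) tag in cells in which the Slc17a6 (vGluT2) locus has driven Cre, and an HA antibody collects their ribosomes. TRAP is the RNA on those ribosomes, labelled as glutamatergic neurons. INPUT is the RNA of the lysate from all neurons and glia. Tissue of 38 mice of both sexes went into 4 pools of 7 to 11 mice. Pool VP1.6 held mice of 9 to 12 weeks, and VP2.2, VP2.6 and also VP2.11 mice of 10 to 16 weeks. A TRAP and an INPUT library were made of every pool (n = 4 per fraction), and listed values below follow the order VP1.6, VP2.2, VP2.6, VP2.11. Because a tag follows the Cre history of a cell, and a pool mixes animals, the values are means over tagged cells and over mice. The mice lived in a light-dark cycle, but the time of day at which the tissue was taken is not given in the sources used here. The purpose of the study's comparison was to learn which genes are translated in glutamatergic VP neurons.

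The molecular clock is a loop of transcription and translation that runs in nearly every cell, with the suprachiasmatic nucleus as its pacemaker. BMAL1 (encoded by Arntl) and CLOCK bind E-boxes and switch on the Per and Cry genes, whose proteins return to the nucleus and repress BMAL1 and CLOCK. The nuclear receptors REV-ERBα and REV-ERBβ (Nr1d1 and Nr1d2) form a further loop by repressing Arntl through ROR elements, and DBP is a rhythmic output factor that binds D-boxes. Arntl mRNA is low at about the time when the mRNAs of E-box targets such as Dbp and Nr1d1 are high, so each level depends on the hour of sampling.

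The sequences through which these proteins act on their own genes were looked up in RefSeq promoter windows of GRCm38.p6. These hold 250 bases before and 50 after a start site. All of the genes but Per2 matched (9 of the 10), with 13 windows, some of which overlap. Motifs were searched on both strands. The E-box is CACGTG. A weaker form, the E'-box, is CACGTT, and it reads AACGTG on the opposite strand. The D-box is TTATGTAA. The core of the ROR element is TAGGTCA, and the cAMP response element (CRE) is TGACGTCA. An E-box and a CRE can share bases, but the matches in the clock genes share none. An E-box was in 2 of the 13 windows (7.15% of all 32851 windows), an E'-box in 3 (4.68%), a D-box in 1 (0.938%), the ROR core in 1 (2.61%) and the CRE in 0 (1.79%). Shown are the 250 bases before the start of a Per pair and of the Cry pair, of which 1 gene was called higher in TRAP and the other was not, with matches in capitals:
Per1, chr11:69098699-69098948, plus strand: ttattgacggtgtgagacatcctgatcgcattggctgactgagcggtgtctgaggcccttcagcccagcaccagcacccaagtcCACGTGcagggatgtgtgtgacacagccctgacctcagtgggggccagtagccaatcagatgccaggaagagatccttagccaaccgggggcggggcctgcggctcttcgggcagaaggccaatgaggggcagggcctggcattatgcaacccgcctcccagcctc
Per3, chr4:151044666-151044915, minus strand: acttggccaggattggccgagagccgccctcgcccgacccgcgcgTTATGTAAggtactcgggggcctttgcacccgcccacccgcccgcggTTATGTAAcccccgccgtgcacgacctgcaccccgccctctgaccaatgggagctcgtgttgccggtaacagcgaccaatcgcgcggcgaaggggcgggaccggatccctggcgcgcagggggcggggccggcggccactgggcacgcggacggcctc
Cry1, chr10:85185055-85185304, minus strand: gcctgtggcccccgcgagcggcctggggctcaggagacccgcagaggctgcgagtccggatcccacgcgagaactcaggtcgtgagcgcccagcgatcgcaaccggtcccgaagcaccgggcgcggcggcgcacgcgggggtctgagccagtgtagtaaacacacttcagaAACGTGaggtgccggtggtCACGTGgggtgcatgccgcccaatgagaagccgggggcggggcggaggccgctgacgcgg
Cry2, chr2:92434070-92434319, minus strand: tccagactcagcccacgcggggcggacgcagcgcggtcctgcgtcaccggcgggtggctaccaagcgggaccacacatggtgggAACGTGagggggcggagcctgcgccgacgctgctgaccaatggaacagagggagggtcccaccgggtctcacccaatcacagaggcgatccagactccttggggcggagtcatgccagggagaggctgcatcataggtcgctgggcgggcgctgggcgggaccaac

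Counted from the start site, with bases before it negative, Per1 holds an E-box at -166 to -161 of 1 of its 2 starts. Per3 holds no E-box here but 2 D-boxes, at -205 to -198 and -158 to -151. Cry1 holds an E-box and an E'-box, and Cry2 an E'-box. Arntl has the ROR core at 31 to 37 after 1 of its 2 starts. This match is shown with its surroundings, because the products of Nr1d1 and Nr1d2 are known to repress Arntl through ROR elements:
Arntl, chr7:113207530-113207558, plus strand: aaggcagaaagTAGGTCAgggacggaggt
Nr1d1 has an E'-box at -28 to -23, and no motif of this list was in the windows of Clock, Nr1d2 or Dbp. A match is a string of letters and not a measured binding site, and sequence outside these windows was not searched.

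Levels are given in CPM, the reads of a gene scaled to its library's total, from the log2 CPM that the authors deposited. The 4 TRAP and 4 INPUT libraries were compared with limma with the pool as a block, over 14249 genes over 1 CPM in at least 3 libraries, and a gene was called at a Benjamini-Hochberg adjusted p under 0.05. Of all genes tested, 4592 were called (32.2%), 2199 of them higher (15.4%) and 2393 lower in TRAP (16.8%). Of the 10 clock genes, which all passed the filter on low values, 5 were called. Per1, Per2, Arntl and Cry2 were higher in TRAP and Dbp was lower. Per3, Cry1, Clock, Nr1d1 and Nr1d2 were not called. Without the block the same 5 genes were called, against 47.9% of all genes. Over all 10 clock genes the median change was 0.26 (log2), beside -0.05 over all genes tested.

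**Figure D1:**
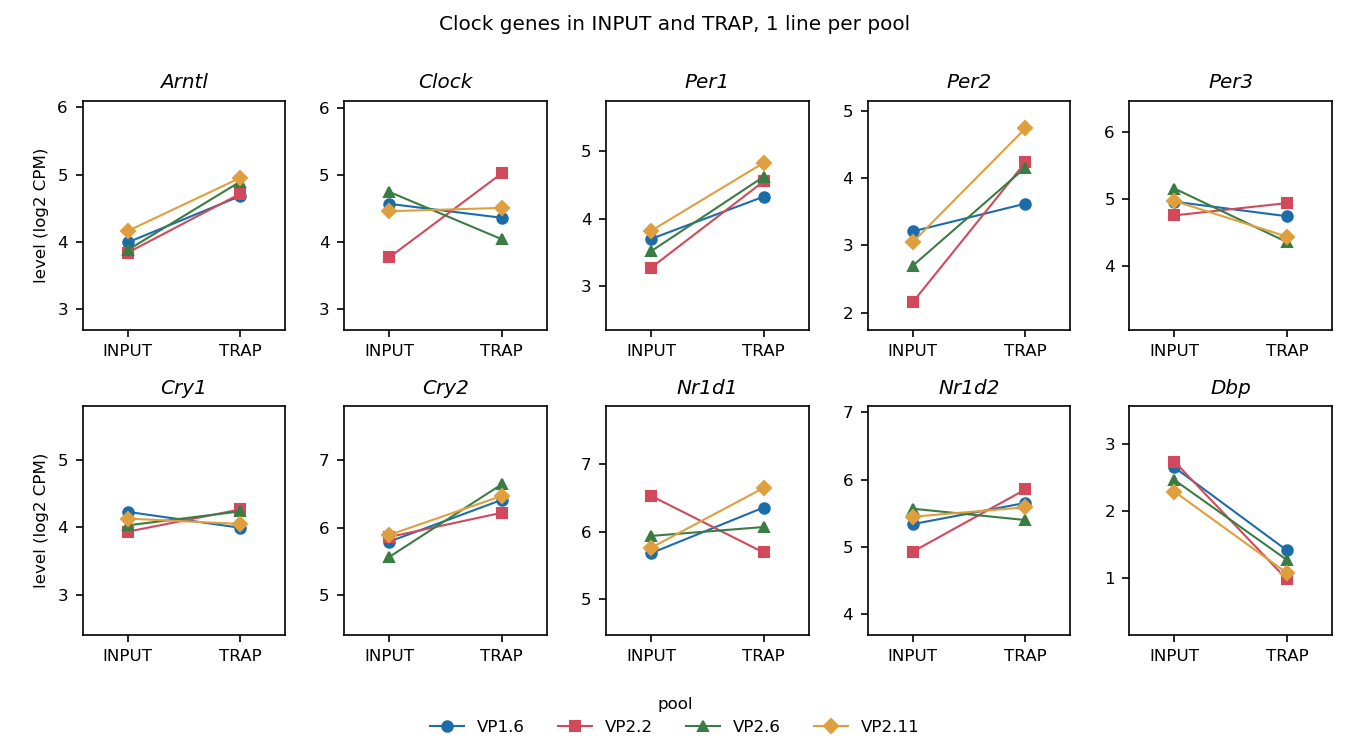
Level of each clock gene in log2 CPM in the INPUT (left) and TRAP (right) library of each pool, with 1 line per pool and an axis of equal span in each panel. All 4 lines rise for Arntl, Per1, Per2 and Cry2 and fall for Dbp, while the lines of Clock, Nr1d1, Nr1d2, Per3 and Cry1 run in both directions.

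The labels of the fractions were checked against marker genes. Of 3 glutamatergic genes, Slc17a6 was higher in TRAP by 2.55 and Slc17a7 by 1.45 on the log2 scale, and Slc17a8 was not called (-0.03). The 3 GABAergic genes were not depleted as a group (1 called lower, summed level 918 to 1573 CPM in TRAP and 584 to 1394 CPM in INPUT), nor were the 3 cholinergic genes (1 called lower, 87.8 to 137 CPM and 39.4 to 84.1 CPM). The GABAergic gene called lower was Slc32a1 (-1.26, adjusted p = 0.0055 from limma), in 4 of 4 pools. Most of the GABAergic sum is Gad1 (0.30) and Gad2 (-0.05), which were not called. The summed level of 5 pan-neuronal genes ran from 19041 to 27473 CPM in TRAP and from 5480 to 10591 CPM in INPUT, with 4 of the 5 called higher. In TRAP most of that sum is Snap25 (14263 to 21756 CPM). Of 5 marker genes each, 4 were called lower in TRAP for astrocytes (summed level 149.7 to 253 CPM in TRAP and 343 to 502 CPM in INPUT), 4 for oligodendrocytes (900.1 to 1631 CPM and 3506 to 3807 CPM) and 3 for microglia (23.7 to 31.8 CPM and 78.8 to 126 CPM). Mag, the oligodendrocyte gene not called, was higher in TRAP in 3 of 4 pools (0.61, adjusted p = 0.072 from limma). None of these glial markers is at 0 in TRAP. Of 5 endothelial genes, Cldn5 and Tek had no row. The summed level of the 3 with a row was 6.85 to 37.5 CPM in TRAP and 2.33 to 6.53 CPM in INPUT. The highest sum was in TRAP of VP2.11. Flt1 was called higher (2.37, adjusted p = 0.0047 from limma). Pecam1 (0.59) and Cdh5 (0.91) were not called, and were lower in TRAP in 2 and 1 of 4 pools. In such bulk RNA a gene lower in TRAP can have fewer expressing cells or less RNA per cell, which cannot be told apart, and the part of the glial and endothelial markers in the clock genes' results was not tested.

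Arntl (ENSMUSG00000055116), on chromosome 7 of GRCm38 from 113207465 to 113314126, encodes BMAL1, the partner without which CLOCK does not bind E-boxes. Its level in TRAP was 25.6 CPM in VP1.6, 26.2 in VP2.2, 29.7 in VP2.6 and 30.9 in VP2.11. In INPUT it was 15.9, 14.3, 14.7 and 17.9 CPM. Every TRAP library lay above every INPUT library. The mean was 28.1 ± 2.59 CPM in TRAP and 15.7 ± 1.61 CPM in INPUT (SD, n = 4), a log2 fold change of 0.84 (standard error 0.24, adjusted p = 0.015 from limma), or 1.79-fold. The difference was alike in the 4 pools, from 0.69 to 1.02, and its SD over pools, 0.14, was exceeded by that of 98.1% of all genes tested. The adjusted p from limma was 0.052 without VP1.6 and 0.094 without VP2.6.

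Clock (ENSMUSG00000029238), on chromosome 5 from 76209868 to 76304792, encodes the other protein of the activator. Its TRAP level was 20.6, 32.5, 16.5 and 22.8 CPM, and its INPUT level 23.8, 13.7, 26.9 and 22.0 CPM. VP2.2 stood apart, with the highest TRAP and the lowest INPUT level, and the fractions overlapped. The log2 fold change was 0.10 (95% interval -0.55 to 0.74, adjusted p = 0.83 from limma), with 1.25 in VP2.2 and -0.70 in VP2.6, and it was -0.29 without VP2.2. Within a pool the change of Arntl exceeded that of Clock in 3 of 4 pools, by 0.75 ± 0.86 on the log2 scale (SD, n = 4), a difference within the spread over pools.

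The Period genes encode the repressors that time the loop, and they split. Per2 (ENSMUSG00000055866), on chromosome 1 from 91415982 to 91459324, had 12.3, 18.8, 17.9 and 26.7 CPM in TRAP, and 9.25, 4.46, 6.49 and 8.28 CPM in INPUT. Its mean was 18.9 ± 5.94 CPM in TRAP and 7.12 ± 2.111 CPM in INPUT (SD, n = 4), which was the largest rise of the 10 genes, 2.66-fold (log2 fold change 1.41, standard error 0.32, adjusted p = 0.0039 from limma). The difference ran from 0.41 in VP1.6 to 2.08 in VP2.2. Per1 (ENSMUSG00000020893), on chromosome 11 from 69095217 to 69109960, which besides the E-box responds to neuronal activity and glucocorticoids, had 20.1, 23.5, 24.7 and 28.4 CPM in TRAP and 13.0, 9.65, 11.4 and 14.1 CPM in INPUT. The fractions did not overlap, and Per1 was 2.01-fold higher in TRAP (log2 fold change 1.01, standard error 0.25, adjusted p = 0.0081 from limma). Per1 and Per2 were called with each pool left out in turn, which of the 10 genes held for these alone.

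Per3 (ENSMUSG00000028957), on chromosome 4 from 151003652 to 151044665, is the Period gene least needed for the rhythm of mice. It had 26.8, 30.7, 20.5 and 21.7 CPM in TRAP and 31.1, 27.0, 35.6 and 31.3 CPM in INPUT. The TRAP level was below INPUT in all pools but VP2.2, and the fractions overlapped. Its log2 fold change was -0.34 (95% interval -0.86 to 0.18, adjusted p = 0.31 from limma). Within each of the 4 pools the change of Per1 was above that of Per3, by 0.84 to 1.90 on the log2 scale, and the change of Per2 was above that of Per3 by 0.63 to 2.26. An exact two-sided sign-flip permutation test over the 4 pools gave p = 0.125 for each, the smallest it can give, so it cannot pass 0.05 here. Over the 8 pairs of clock genes compared in this way, the Benjamini-Hochberg adjusted p of these permutation tests was 0.20.

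The Cryptochromes are the strongest repressors of the loop. Cry2 (ENSMUSG00000068742), on chromosome 2 from 92403646 to 92434043, had 85.1, 74.5, 99.9 and 88.6 CPM in TRAP and 55.3, 58.0, 47.3 and 59.3 CPM in INPUT. All TRAP libraries were above all INPUT libraries. Its mean rose from 55.0 ± 5.40 to 87.1 ± 10.5 CPM (SD, n = 4), 1.58-fold (log2 fold change 0.66, standard error 0.22, adjusted p = 0.031 from limma). The adjusted p was 0.11 without VP1.6, 0.22 without VP2.6, 0.067 without VP2.11 and 0.013 without VP2.2. Cry1 (ENSMUSG00000020038), on chromosome 10 from 85131700 to 85185064, had 15.9, 19.2, 18.9 and 16.6 CPM in TRAP and 18.8, 15.3, 16.3 and 17.5 CPM in INPUT, which overlap. Its log2 fold change was 0.06 (95% interval -0.48 to 0.60, adjusted p = 0.89 from limma). The change of Cry2 was above that of Cry1 in 4 of 4 pools, but by 0.03 in VP2.2 against 0.66 to 0.87 in the others.

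Both REV-ERB genes were higher in TRAP in 3 of 4 pools and lower in the remaining pool. Nr1d1 (ENSMUSG00000020889), on chromosome 11 from 98767932 to 98775333, had 82.1, 51.6, 67.1 and 100.4 CPM in TRAP and 51.3, 92.6, 61.3 and 54.2 CPM in INPUT. VP2.2 had the lowest TRAP and the highest INPUT level. TRAP minus INPUT was -0.84 there and 0.13 to 0.89 in the other pools, with a mean of 0.21 (95% interval -0.36 to 0.79, adjusted p = 0.57 from limma). Nr1d2 (ENSMUSG00000021775), on chromosome 14 from 18204054 to 18239127, moved the other way in VP2.2. It had 50.4, 57.9, 42.2 and 48.2 CPM in TRAP and 40.5, 30.5, 47.5 and 43.7 CPM in INPUT, with a log2 fold change of 0.30 (95% interval -0.20 to 0.81, adjusted p = 0.35 from limma), which was 0.096 without VP2.2. The value of Nr1d1 was 0.57 without VP2.2, 0.060 without VP1.6 and -0.011 without VP2.11. Of the exon length of Nr1d1, 8.55% lies on exons of Thra on the opposite strand, and whether the counting used the strand is not given in the sources used here.

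Dbp (ENSMUSG00000059824), on chromosome 7 from 45705088 to 45710203, was the only one of the 10 genes called lower in TRAP on the deposited values. After removal of a trend with exon length, described below, Per3 was also called lower. The level of Dbp was 2.67, 1.98, 2.42 and 2.114 CPM in TRAP and 6.28, 6.66, 5.51 and 4.89 CPM in INPUT. The fractions were well apart, with means of 2.29 ± 0.310 and 5.84 ± 0.790 CPM (SD, n = 4). The log2 fold change was -1.35 (standard error 0.39, adjusted p = 0.017 from limma), or 2.54-fold lower in TRAP, and ran from -1.75 in VP2.2 to -1.19 in VP2.6. It was -1.21 to -1.40 with 1 pool left out, with an adjusted p of 0.060 without VP1.6, 0.061 without VP2.2, 0.059 without VP2.6 and 0.023 without VP2.11. Steps of whole reads in the values of VP2.2 and VP2.6 gave 30 and 27 reads of Dbp in TRAP and 310 and 124 in INPUT. The exact Poisson 95% interval of those TRAP reads was 1.54 to 3.26 CPM in VP2.2 and 1.37 to 3.03 CPM in VP2.6, below the INPUT intervals of 6.95 to 8.71 and 4.01 to 5.75 CPM; such intervals cover counting error only. Exons of Sphk2 on the opposite strand share 18.01% of the exon length of Dbp. Sphk2 had 25.9 ± 4.87 CPM in TRAP and 23.5 ± 2.59 CPM in INPUT (SD, n = 4, log2 fold change 0.12).

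**Figure D2:**
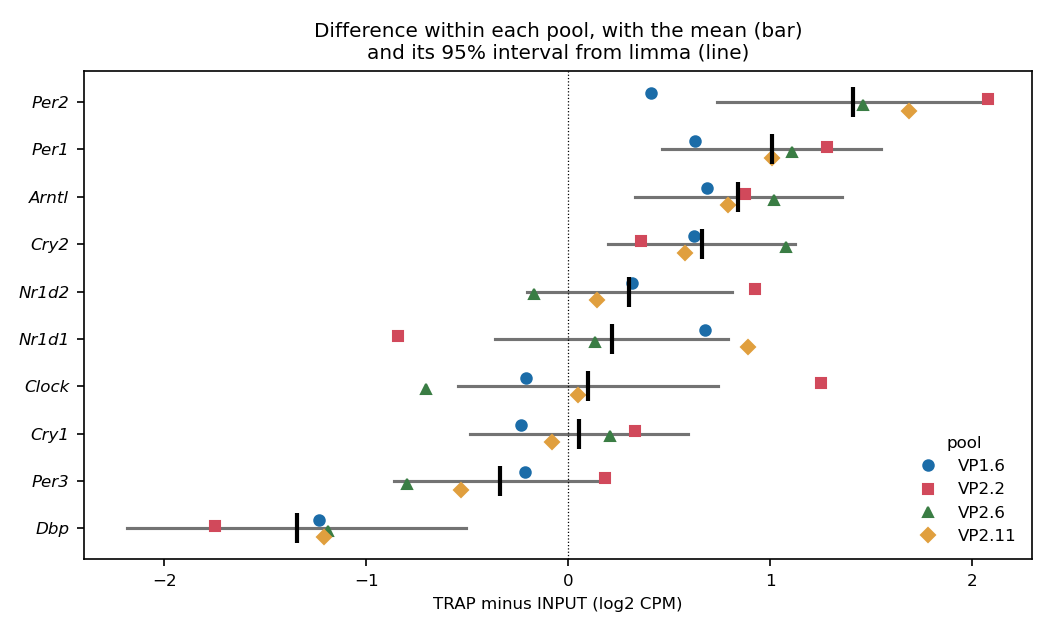
TRAP minus INPUT in log2 CPM for each clock gene, with 1 symbol per pool, the mean as a bar and the 95% interval from limma as a line. The intervals of Per2, Per1, Arntl and Cry2 lie above 0 and that of Dbp below it, and the symbols of VP2.2 lie far from the rest for Clock and Nr1d1.

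Each of the 5 genes called lay apart in the fractions with no overlap of libraries, as did 47.7% of all genes tested. In these values that adds nothing to the direction within pools: all 6791 genes with the same direction in 4 pools also had no overlap, and 0 overlapped. The values of 1 pool are also tied to each other in level. Libraries of the same pool deviated from their fraction means in opposite directions across genes (Pearson's r -0.75 to -0.49). Reads could be recovered in VP2.2 and VP2.6. Of the clock genes, Per1, Nr1d1, Nr1d2 and Dbp had reads resolved without a multiple in both pools. Their deposited levels differed by -0.59 to 0.29 (log2) from those the reads give. The reads were found from the deposited TRAP minus INPUT, so this shift is equal in TRAP and INPUT by construction. A shift equal in both cancels in TRAP minus INPUT within a pool, but not in the levels across pools. Whether it is equal for each gene was not tested.

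Compared per length of exon, Nr1d1 was the most abundant clock mRNA in both fractions, with 24.5 ± 6.77 CPM per kb in TRAP and 21.1 ± 6.17 CPM per kb in INPUT (SD, n = 4). Cry2 (13.8 ± 1.66 CPM per kb) and Nr1d2 (9.18 ± 1.19 CPM per kb) followed in TRAP, each with all libraries above those of the next gene. Cry1, Per1, Arntl, Per2, Per3 and Clock came next, from 5.28 ± 0.491 to 1.68 ± 0.496 CPM per kb, and each of these overlapped with its neighbour in the order. Dbp was last at 0.767 ± 0.103 CPM per kb, below every library of Clock. In INPUT, Cry2 and Nr1d2 overlapped (8.70 ± 0.855 and 7.50 ± 1.35 CPM per kb), and Cry1 and then Per3 (3.26 ± 0.366 CPM per kb) stood above Per1. Per1, Arntl, Dbp, Clock and Per2 each overlapped with the next, and Per2 was last at 1.22 ± 0.361 CPM per kb. Per2 thus took rank 7 in TRAP and 10 in INPUT, and Dbp rank 10 and 8.

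**Figure D3:**
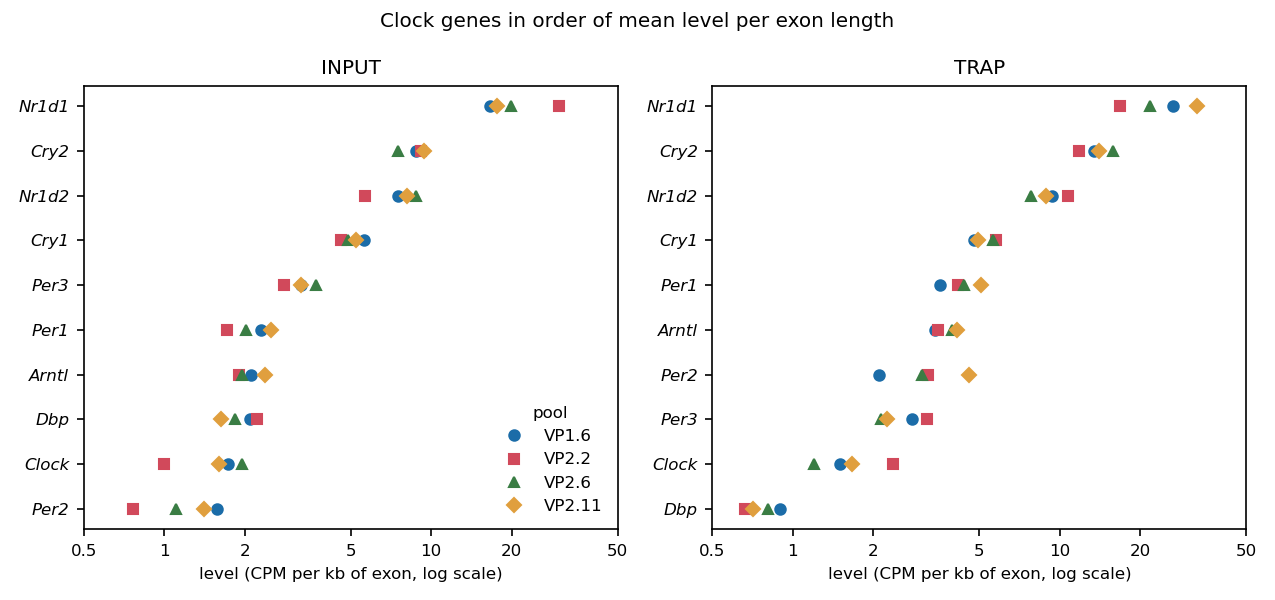
Level of each clock gene in CPM per kb of exon on a log axis, in INPUT (left) and TRAP (right), with 1 symbol per pool and the genes in order of their mean. Nr1d1 leads both panels, while Per2 is last in INPUT and Dbp is last in TRAP.

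Because Arntl and the E-box targets are known to peak at opposed times, their ratio within a library was set out for each pool. Dbp minus Arntl was -3.26, -3.73, -3.62 and -3.87 on the log2 scale in TRAP, and -1.34, -1.10, -1.41 and -1.87 in INPUT. It was lower in TRAP in all 4 pools, with TRAP minus INPUT from -2.63 to -1.92. Per3 minus Arntl was also lower in TRAP in 4 of 4 pools, with a mean of -0.19 ± 0.39 in TRAP and 0.99 ± 0.20 in INPUT (SD, n = 4). Per1 minus Arntl was -0.23 ± 0.11 in TRAP and -0.39 ± 0.12 in INPUT, and was higher in TRAP in 3 of 4 pools. Per2 minus Arntl was higher in TRAP in 3 of 4 pools and Nr1d1 minus Arntl was lower in 3 of 4. TRAP minus INPUT of such a ratio is the change of the gene minus that of Arntl, so it restates the changes given above. These are descriptions, and 4 pools are too few for a correlation between genes.

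**Figure D4:**
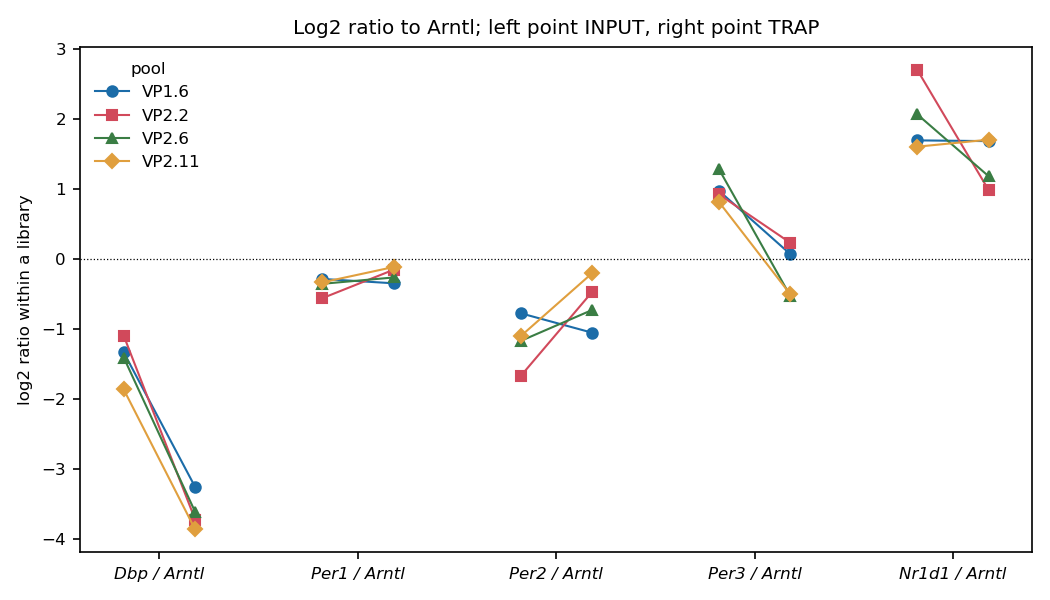
Log2 ratio of Dbp, Per1, Per2, Per3 and Nr1d1 to Arntl within each library, with INPUT as the left and TRAP as the right point of each line and 1 line per pool. The lines of Dbp and Per3 fall in all 4 pools, while those of Per1 stay near the same height.

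The clock genes differed in how much they varied over the 4 pools of a fraction. The median SD of their log2 level was 0.20 in TRAP and 0.22 in INPUT, beside 0.32 and 0.26 over all genes tested, and that of TRAP minus INPUT was 0.36, beside 0.57. The steadiest levels were those of Cry1 and Arntl, whose SD in TRAP was exceeded by that of 89.7% and 90.0% of all genes. The most variable were Per2 and Clock in INPUT, where 13.3% and 17.8% of all genes had a larger SD. Nr1d1 and Nr1d2 in INPUT (23.5% and 45.6%) and Per2, Clock and Nr1d1 in TRAP (32.8%, 37.8% and 37.7%) also varied more than most genes. These shares are descriptions, and the shift per gene and pool enters them.

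Longer genes had higher values of TRAP minus INPUT over the whole table, with a Spearman's rho of 0.41 with exon length that is a description over genes, not over replicates. The median log2 fold change was -0.98 in the 1425 genes with the shortest exons and 0.49 in the 1425 with the longest. The clock genes called higher have 5631 (Per1), 5856 (Per2), 6320 (Cry2) and 7523 (Arntl) bases of exon, and Dbp has 2993. After removal of that trend in each pool, 4 clock genes were called, against 32.0% of all genes. Per1 (log2 fold change 0.81, adjusted p = 0.015 from limma), Per2 (1.20, adjusted p = 0.0067) and Dbp (-1.25, adjusted p = 0.017) were still called. Arntl (0.51, adjusted p = 0.090) and Cry2 (0.42, adjusted p = 0.14) were not, and Per3, which has 9608 bases, was called lower in TRAP (-0.77, adjusted p = 0.012). Nr1d1 and Cry1, of about the length of Dbp with 3077 and 3340 bases, had 0.30 and 0.12 in that fit.

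**Figure D5:**
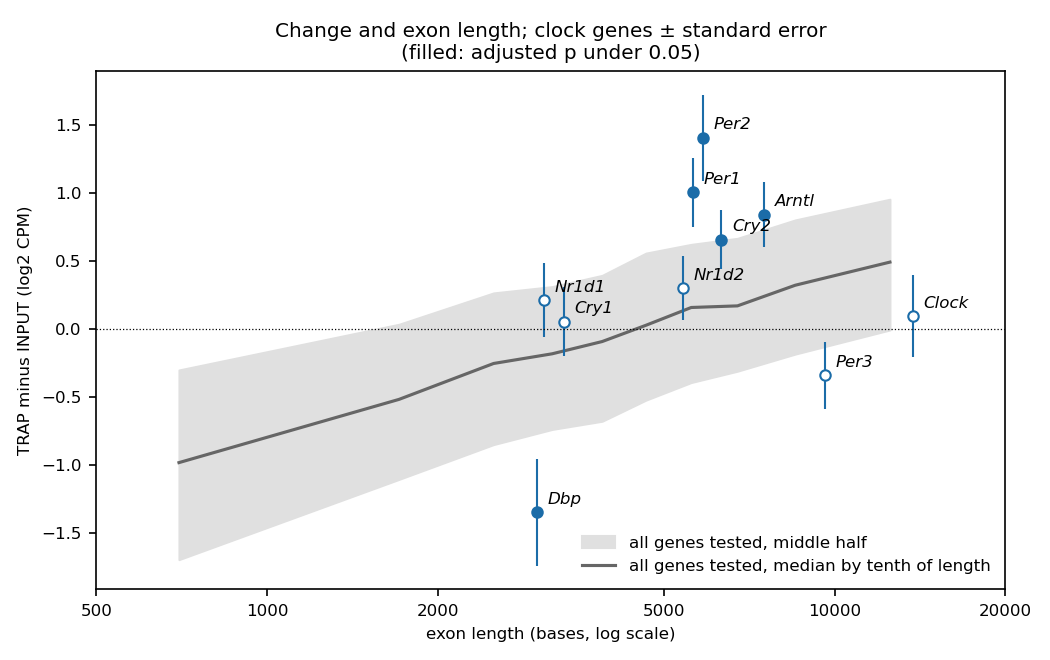
TRAP minus INPUT in log2 CPM against exon length on a log axis, with clock genes as points ± standard error, filled where called, and all genes tested as the median (line) and quartiles (band) in 10 bins of length. Per1, Per2 and Arntl lie above the band and Dbp and Per3 below it, while Cry2 lies near its upper edge.

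A further 37 genes that act on or with the clock were read in the same fit, and all 37 were tested. Of these 6 were higher and 4 lower in TRAP, 27.0% in all beside 32.2% of all genes tested, and their median log2 fold change was 0.06. Among 11 genes of the activating and repressing arms, 3 rose and 2 fell. Rora, which activates Arntl through the ROR element, had 134 ± 14.1 CPM in TRAP and 43.0 ± 8.31 CPM in INPUT (SD, n = 4), higher by 1.66 on the log2 scale (adjusted p = 9.2e-05 from limma), and Rorb, of the same family, 0.26 (adjusted p = 0.44). Npas2, which can take the place of Clock, had -0.59 (adjusted p = 0.14). The E-box repressors Bhlhe40 and Bhlhe41 went apart, with 0.68 (adjusted p = 0.033) and -0.74 (adjusted p = 0.021). Ciart, a repressor of BMAL1 and CLOCK, was higher by 0.79 (adjusted p = 0.027), in all pools but VP2.2.

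The relatives of Dbp were not called, and their difference from Dbp was not tested. Tef, which binds the same D-box, had 124 ± 11.8 CPM in TRAP and 150.5 ± 10.8 CPM in INPUT (SD, n = 4), or -0.28 on the log2 scale (adjusted p = 0.32 from limma), and was lower in TRAP in 4 of 4 pools. Hlf, the remaining member of that family, had -0.30 (adjusted p = 0.33) and was lower in 3 of 4 pools. The D-box repressor Nfil3 had 0.81 (adjusted p = 0.12), with 2.00 in VP1.6 and -0.28 in VP2.11. Of 10 kinases and phosphatases that act on clock proteins, Prkaa2 rose (1.06, adjusted p = 0.0066) and Ppp1ca fell (-1.02, adjusted p = 0.0065). The PER kinases Csnk1d and Csnk1e had 0.31 (adjusted p = 0.30) and 0.06 (adjusted p = 0.85). Of 5 ubiquitin ligases limma called 0. In the rest of the list Nono (1.22, adjusted p = 0.0020) and Kmt2a (0.84, adjusted p = 0.023) rose and Tipin fell (-0.88, adjusted p = 0.013). Rora, Nono, Prkaa2 and Ppp1ca were called with each pool left out in turn, and each of the other 5 called genes named here was lost in at least 1 such fit, where its highest adjusted p was 0.067 to 0.22. With the exon length trend taken out, Kmt2a (adjusted p = 0.45) and Tipin (adjusted p = 0.081) were not called.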

How the data were processed

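RNA of 4 TRAP and 4 INPUT libraries was sequenced. Per the study's methods and the submitters' processing notes, the authors used STAR 2.5.1a with a mouse Ensembl assembly (GRCm38), assigned uniquely placed reads to genes by featureCounts, took TMM factors from edgeR and fitted limma. They deposited log2 CPM per library. Columns of their own comparison (fold changes, limits, p-values and related statistics) and a number of transcripts per gene were left out. The labels take INPUT from the lysate before the pulldown, while the methods call the sequenced partner of TRAP the unbound fraction. Of 14398 rows, 45 repeated a gene and were left out. The values of INPUT VP1.6 and of both VP2.11 libraries are rounded to 3 significant digits.

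TRAP was compared with INPUT with limma 3.58.1 (lmFit, eBayes with a trend) in R 4.3.3, two-sided, with Benjamini-Hochberg adjustment over all genes over 1 CPM in at least 3 libraries. The pool was a block, because the labels name the same pool for both libraries and the protocol takes them from 1 homogenate. Same-pool deviations correlated at -0.75 to -0.49 across genes and those of different pools at 0.05 to 0.44. The fit was tested on simulated data with 200 of 14249 genes changed. With the block it called 49 of the changed and 2 of the unchanged genes, so most changed genes were missed. Without the block it called 126 and 47. An unadjusted p under 0.05 from limma was given to 5.05% of unchanged genes with the block and 12.6% without it. The methods describe the samples as independent; the days on which they were taken are not given in the sources used here.

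Files hold no total counts. Differences between the fractions of VP2.2 and of VP2.6 matched ratios of whole reads (tolerance 3e-09 on the log2 scale) for 89.8% and 93.1% of genes, with effective sizes of 13.1 and 39.8 M reads (TRAP and INPUT of VP2.2) and 12.9 and 25.7 M reads (VP2.6). A pair of reads is known up to an odd multiple, which the level resolves only in part. Depth is unknown in the other pools. No count test was run, because reads were found only in these 2 pools.

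Exon lengths and positions came from GENCODE M21 (GRCm38), with all 14353 genes matched. The clock genes and the lists were chosen with earlier results of these data known. All 10 clock genes were named, and of the further 37 genes the called ones, up to 8 by size of change, and 10 close partners. The counts cover all 37 genes, and 1 of those called is not reported here by name. Alternatives were no pool block, array weights, no filter, a pseudocount of 1 CPM, no eBayes trend, differences centred on their median, an exon length trend taken out (lowess) and each pool left out.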

Additional observations from a re-analysis of the deposited data

How the results depend on the processing

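The number of clock genes called was 4 or 5 under every alternative that kept all pools, and 2 to 4 with 1 pool left out, where the lowest number was reached without VP1.6 and without VP2.6. Without the replicate block the number was 5, the same genes as with it. Over all genes tested the number was 4592 with the block and 6830 without it. It fell to 3232 without VP1.6, 3250 without VP2.6, 4156 without VP2.2 and 4102 without VP2.11. It was 3312 without a trend in eBayes, 6013 with array weights and 4561 with the exon length trend taken out. The number of clock-related genes called was 10, and 5 without a trend in eBayes, 13 with the exon length trend taken out, 14 with array weights, 15 without the block and 5 to 10 with 1 pool left out (5 without VP1.6 and 6 without VP2.6). Of 120 log2 fold changes of the 10 clock genes over all alternatives, 99 kept their direction and their side of the threshold, 13 lost a call, 2 gained one and 6 turned direction. All of those that turned belong to genes not called. Clock was -0.24 with array weights and -0.46 with the exon length trend taken out, with the block and without it (the latter fit chosen after seeing the data), and -0.29 to 0.36 with 1 pool left out. Cry1 was -0.036 to 0.15 and Nr1d1 -0.011 to 0.57 with 1 pool left out. Cry2 was not called without a trend in eBayes (adjusted p 0.089 from limma). The cause of these changes was not tested. A fit with a pool left out also has fewer libraries, which cannot be told apart from the loss of that pool. The median log2 fold change of the clock genes stayed between 0.21 and 0.41. Depth limits Dbp most, with 27 and 30 reads in the TRAP libraries where reads were recovered.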

Other observations

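In the read-derived levels, INPUT Nr1d1 was 91.9 CPM in VP2.2 and 92.3 CPM in VP2.6, from 3653 and 2373 reads, whereas the deposited values stand at 92.6 and 61.3 CPM. TRAP Nr1d1 was 51.2 and 101 CPM by reads and 51.6 and 67.1 CPM as deposited. The contrast between those pools in the INPUT level of Nr1d1 is thus not in the reads. TRAP minus INPUT (-0.84 and 0.13) is the same in both by construction, since the reads were found from that difference. INPUT Dbp was 7.80 CPM in VP2.2 and 4.82 CPM in VP2.6 by reads, with exact Poisson 95% intervals that do not overlap, and 6.66 and 5.51 CPM as deposited. These intervals cover counting error only, and how the deposited values came to differ from the reads was not tested.

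No library of any clock gene lay far from the other 3 of its fraction by Dixon's ratio in 20 groups of 4, where chance gives about 1.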
